A study of Canis lupus familiaris with 10 samples.

Results

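The colony-stimulating factors CSF1 (M-CSF), CSF2 (GM-CSF) and CSF3 (G-CSF), their receptor genes CSF1R, CSF2RB and CSF3R, and the stem cell factor receptor KIT were examined in canine cutaneous histiocytoma (CCH). Members were taken by gene symbol, with no threshold on measured values: of 8 symbols sought, 7 had a row among the 800 genes of the panel, 3 for ligands and 4 for receptors. KITLG, the ligand of KIT, was not analysed here. All 7 passed the filter on low values, a mean of at least 20 normalized counts over the 10 samples, as did 761 of the 800 genes.

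CCH is a benign skin tumour of dogs that derives from the Langerhans cell lineage and tends to regress as lymphocytes enter it. The samples were surgical excisions from pet dogs, formalin-fixed and paraffin-embedded (FFPE), whose total RNA was hybridised to the nCounter Canine IO Panel, on which colour-coded barcodes are counted without amplification. A total of 5 tumours were classed as group 1 of Cockerell and Slauson, here early CCH, from dogs of 4 breeds aged 0.5 to 5 years (age not given for 1). Another 5 were classed as group 3 and labelled as enriched in lymphocytes, here late CCH, from dogs of 5 breeds aged 1.5 to 9 years. Early CCH came from 1 intact male, 2 neutered males, 1 female and 1 dog of unstated sex, and late CCH from 3 intact males, 1 neutered male and 1 female. Each tumour was 1 sample and no samples were pooled. The tissue was trimmed of its surroundings but not sorted, so fewer cells of a type and less RNA per cell cannot be told apart in any value given here.

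CSF1 binds CSF1R, a receptor tyrosine kinase that monocytes, macrophages and Langerhans cells depend on, and IL34 is the other ligand of that receptor. CSF2 signals through a complex that contains CSF2RB, the common beta chain that is shared with the receptors for IL3 and IL5, and it promotes the growth and activation of dendritic cells and granulocytes. CSF3 acts on CSF3R and drives the production of neutrophils. KIT is a tyrosine kinase receptor of the same structural class as CSF1R and is best known in skin for its role in mast cells and melanocytes.

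Recovered barcode counts summed to 484696 to 823763 per early sample and 945399 to 1253083 per late sample. Background was the mean plus 2 SD of the 8 negative probes of a sample. It was 32.6 ± 6.37 normalized counts in early CCH and 21.9 ± 2.99 in late CCH (SD, n = 5 each, exact two-sided permutation p = 0.0238). In counts before scaling it was 20.2 ± 1.97 and 20.3 ± 3.28 (exact two-sided permutation p = 0.944), so the difference arose with the scaling. DV200, the percentage of RNA fragments above the length limit used to grade FFPE RNA, was 68.5 ± 2.46 in early and 73.2 ± 2.09 in late CCH (SD, n = 5 each; exact two-sided permutation p = 0.0238). The labels give 71.2 for both late 4 and late 5, whereas the study's RNA quality sheet gives another value for late 5; the label value was used, and every result with DV200 as a covariate rests on it. According to the study's sample sheets, the early tumours were run on one nCounter cartridge and the late tumours on another, so cartridge and stage cannot be told apart. The ratio of positive control probes POS_A to POS_B was 2.09 to 2.17 in early and 2.72 to 2.84 in late CCH (exact two-sided permutation p = 0.00794). The mean normalized total was 980431 in early and 1176320 in late CCH, with the same p by the same test. What caused these differences was not tested. The Langerhans cell marker CD207 rose above background in 1 tumour of each stage, whereas the dendritic cell gene ITGAX did so in every tumour.

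The stage comparison asked which of the 7 genes differed between early and late CCH. CSF1 was 5.33-fold and CSF2RB 2.01-fold higher in late CCH, and these 2 of the 7 genes passed a Benjamini-Yekutieli (BY) threshold of 0.05 together with a change of at least 2-fold. On the panel as a whole, 85 of 761 genes (11.2%) were called by this rule, 70 of them (9.2% of all genes tested) with higher values in late CCH and 15 with higher values in early CCH. The same 2 genes were also those that passed a Benjamini-Hochberg (BH) threshold of 0.05 alone, against 35.7% of all genes tested in either direction, 27.3% higher in late CCH and 8.41% higher in early CCH. These shares are the background for each list count at BH given below, and a list count near them does not set the list apart. CSF1R, CSF2, CSF3, CSF3R and KIT did not pass. The median log2 fold change of the 7 genes was -0.42, with 5 of them at higher values in late CCH, beside a median of -0.18 over the 761 genes, of which 456 (59.9%) had higher values in late CCH. Scaling to the geometric mean of the tested genes moved the median of all genes to 0.21, and quantile normalization moved it to 0.21 as well. The median of the 7 genes was then -0.03 and -0.01, with 4 of the 7 at higher values in late CCH under both. The called genes split into 42 toward early CCH and 35 toward late CCH under the geometric mean scaling, and into 47 and 34 under quantile normalization.

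**Figure D1:**
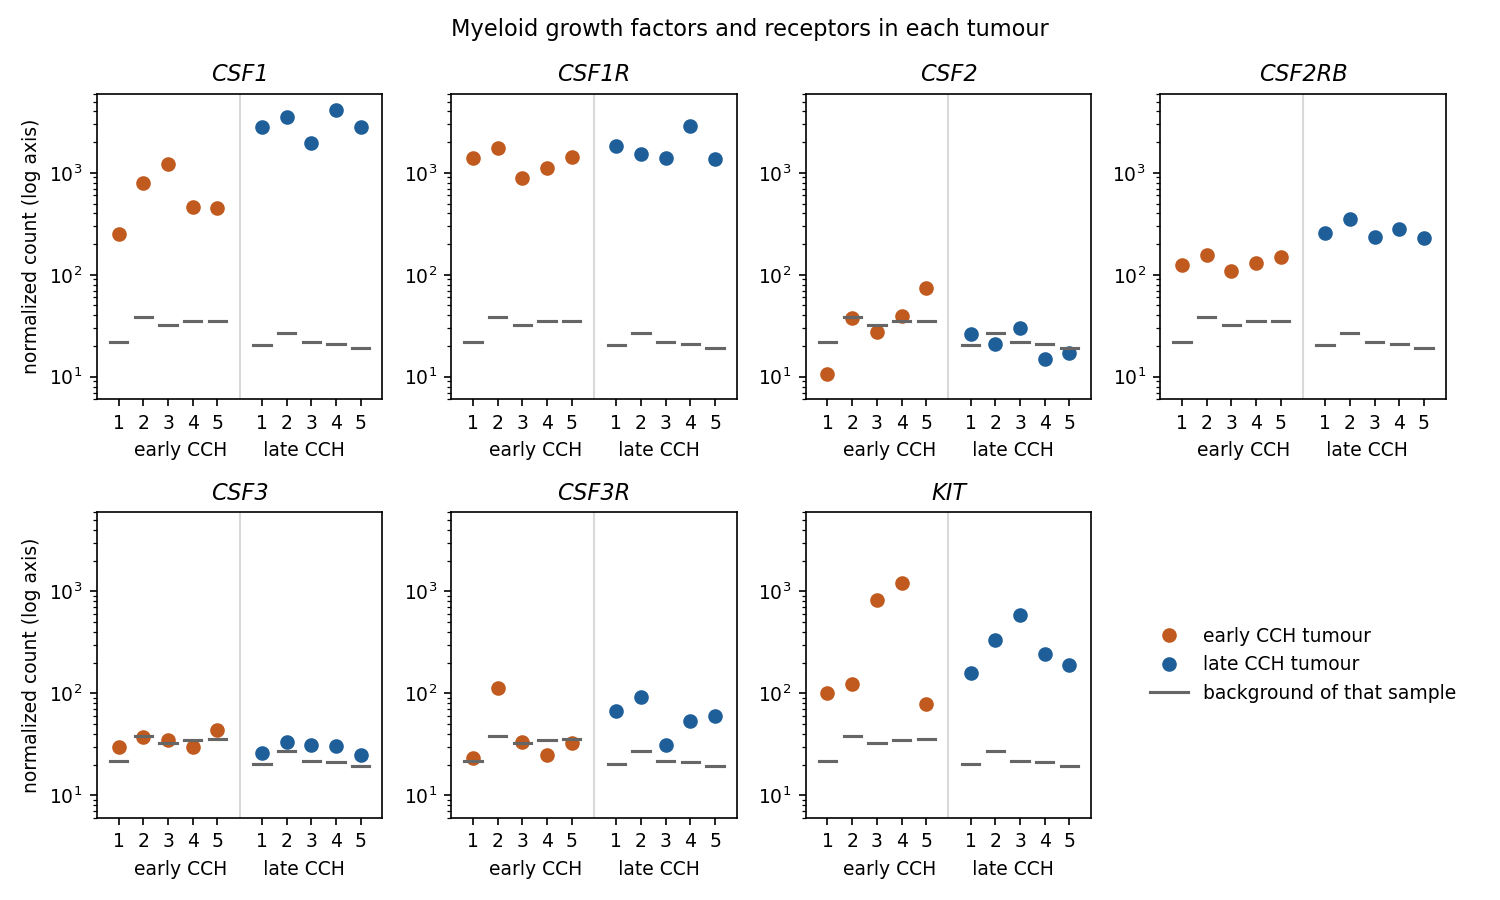
Normalized counts (log axis) of the 7 genes in each of the 5 early and 5 late CCH tumours, numbered by replicate; each grey line is the background of that sample. CSF1 and CSF2RB are higher in every late tumour than in every early tumour, CSF2 and CSF3 lie near the background lines, and KIT is high in early tumours 3 and 4.

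Among the ligands, CSF1 measured 252, 796, 1228, 466 and 455 normalized counts in early tumours 1 to 5. In late tumours 1 to 5 it measured 2789, 3559, 1978, 4114 and 2790. The stages did not overlap, and the lowest late tumour, late 3, was still above the highest early tumour, early 3. Stages without overlap were seen for 24.6% of all genes tested and for 2 of these 7. The mean was 639 ± 383 in early and 3046 ± 818 in late CCH (SD, n = 5 each). The log2 fold change, early minus late, was -2.41 (95% confidence interval -3.28 to -1.55, SE 0.39; limma, BY adjusted p = 0.0152, BH adjusted p = 0.00211). The exact two-sided permutation p was 0.00794, the smallest that 5 against 5 samples can give. Under the geometric mean scaling the value was -2.02 and under quantile normalization -1.97, both with the call kept. With DV200 as a covariate it was -2.23 and the call was lost (BH adjusted p = 0.0644).

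CSF1R, the receptor of CSF1, measured 1385, 1752, 896, 1123 and 1438 normalized counts in early tumours 1 to 5. The late tumours 1 to 5 gave 1834, 1518, 1394, 2859 and 1356. The stages overlapped widely, with 1 late tumour, late 4, above all others and 1 early tumour, early 3, below all others. The log2 fold change was -0.42 (95% confidence interval -0.97 to 0.13; limma, BH adjusted p = 0.213), and the exact two-sided permutation p was 0.143. The interval allows a level in late CCH between 0.914-fold and 1.96-fold that of early CCH, so a change in CSF1R as large as that of CSF1 lay outside it. Under the geometric mean scaling the log2 fold change was -0.03, and under quantile normalization -0.01. Over the 21 alternative fits listed below it ranged from -0.89 to -0.01 and passed BH in 0 of them.

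The ratio of CSF1 to CSF1R within a tumour does not depend on the scaling between samples, though cartridge and stage cannot be told apart in it either. The 2 probes need not count with the same efficiency, so the stage difference of the ratio can be read but not its absolute level. The ratio was 0.182, 0.454, 1.37, 0.415 and 0.317 in early tumours 1 to 5. In late tumours 1 to 5 it was 1.52, 2.34, 1.42, 1.44 and 2.06. The ranges did not overlap, although early 3 came close to the lowest late tumours. The mean log2 ratio was -1.21 ± 1.06 in early and 0.78 ± 0.33 in late CCH (SD, n = 5 each), a 3.98-fold higher ratio in late CCH. The exact two-sided permutation p was 0.00794, and 0.0238 after BH adjustment over the 3 ratios of ligand to receptor.

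**Figure D2:**
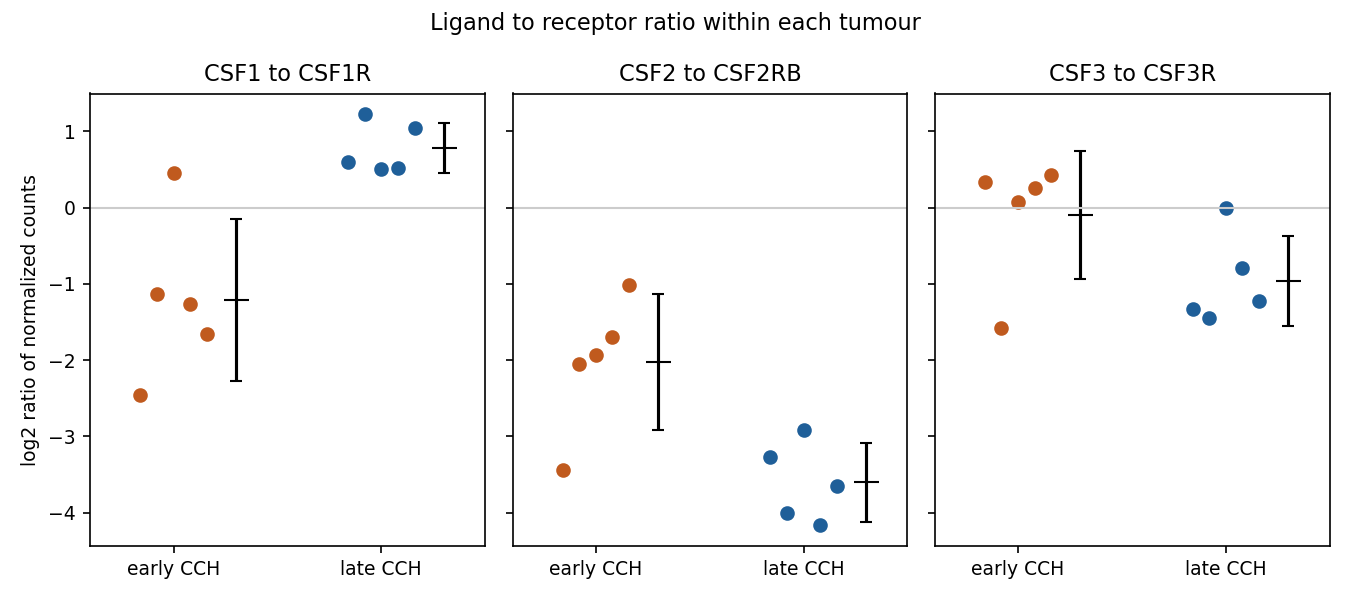
Log2 ratio of ligand to receptor normalized counts in each tumour, with the mean and SD of the 5 tumours of a stage as a black bar beside the points. The CSF1 to CSF1R ratio is higher in all late tumours than in any early tumour, and early tumour 2 stands below the other early tumours in the CSF3 to CSF3R ratio.

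CSF2 was close to background. It measured 10.6, 37.3, 27.5, 39.5 and 73.9 normalized counts in early tumours 1 to 5 and exceeded background in 2 of them, early 4 and early 5. In late tumours 1 to 5 it measured 26.1, 21.0, 30.2, 14.9 and 17.3, and exceeded background in late 1 and late 3. No tumour exceeded 2.09 times its background. The log2 fold change was 0.57 (95% confidence interval -0.40 to 1.53; limma, BH adjusted p = 0.332). Without early 1, the tumour with the lowest value, it was 0.94 and passed the BH threshold (adjusted p = 0.0453). IL3, the gene next to CSF2 in the dog RefSeq annotation and a ligand of another receptor that uses CSF2RB, did not exceed background in any of the 10 tumours.

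CSF2RB, the signalling chain for CSF2, was well detected and separated the stages. It measured 125, 158, 108, 130 and 150 normalized counts in early tumours 1 to 5. In late tumours 1 to 5 it measured 259, 354, 235, 283 and 228. Every late tumour exceeded every early tumour, and the spread within a stage was small, with a highest to lowest ratio of 1.46 in early and 1.55 in late CCH. The mean was 134 ± 19.8 in early and 272 ± 50.7 in late CCH (SD, n = 5 each). The log2 fold change was -1.01 (95% confidence interval -1.42 to -0.60, SE 0.19; limma, BY adjusted p = 0.0241, BH adjusted p = 0.00335), and the exact two-sided permutation p was 0.00794. The value lay at the 2-fold limit, so that the call by BY and 2-fold held in 3 of the 10 fits that left out 1 tumour, while all 10 passed BH. The difference was -0.62 under the geometric mean scaling and -0.39 under quantile normalization, where it did not pass (BH adjusted p = 0.163). With DV200 as a covariate it was -1.13 (BH adjusted p = 0.0506).

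The CSF2 to CSF2RB ratio had a mean log2 value of -2.03 ± 0.89 in early and -3.60 ± 0.52 in late CCH (SD, n = 5 each). Early 1, at -3.44, lay among the late tumours, which ranged from -4.16 to -2.92. CSF2 exceeded background in 4 of 10 tumours. The log2 background in normalized counts was itself 0.56 higher in early CCH, close to the 0.57 of CSF2. The ratio therefore set CSF2RB against a value that was mostly background, and it gives no stage result for CSF2.

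CSF3 lay at background too. Its values ran from 29.6 to 43.6 normalized counts in early and from 24.8 to 33.2 in late CCH, at most 1.46 times the background of the same tumour. It exceeded background in 3 of 5 early and 5 of 5 late tumours, and the log2 fold change was 0.25 (95% confidence interval -0.14 to 0.63; limma, BH adjusted p = 0.287). Under the geometric mean scaling the value was 0.63 and passed the BH threshold (adjusted p = 0.0180), and after setting every value below the highest sample background to that background it was 0.04. Counts this near to background limit what can be said of CSF3 in either stage.

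CSF3R, the neutrophil receptor for CSF3, measured 23.3, 114, 33.0, 24.7 and 32.2 normalized counts in early tumours 1 to 5. In late tumours 1 to 5 it measured 67.0, 91.8, 31.3, 53.9 and 59.4. A single early tumour, early 2, held the highest value of all 10, and the other early tumours lay below 4 of the 5 late tumours. The log2 fold change was -0.61 (95% confidence interval -1.59 to 0.37; limma, BH adjusted p = 0.301). Without early 2 it was -1.01 and passed the BH threshold (adjusted p = 0.0280). The CSF3 to CSF3R ratio had a log2 difference of 0.86, with an exact two-sided permutation p of 0.119, before and after adjustment over the 3 ratios. Without early 2 that difference was 1.23 (adjusted exact p = 0.0238), but CSF3R in the other 4 early tumours was at 0.702 to 1.07 times background and CSF3 was near background in all 10, so in early CCH this ratio set one background-level value against another.

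KIT varied more between tumours of a stage than between stages. It measured 101, 124, 821, 1216 and 77.7 normalized counts in early tumours 1 to 5, a 15.6-fold range. In late tumours 1 to 5 it measured 158, 332, 580, 242 and 191, a 3.68-fold range. Early 3 and early 4 were the highest of all 10 tumours, and the remaining 3 early tumours were the lowest. The log2 fold change was -0.10 (95% confidence interval -1.86 to 1.65; limma, BH adjusted p = 0.932), and its sign turned under the geometric mean scaling (0.28) and quantile normalization (0.49). The interval is wide enough to hold a difference of over 3-fold in either direction, so the comparison does not show that KIT was alike in both stages.

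**Figure D3:**
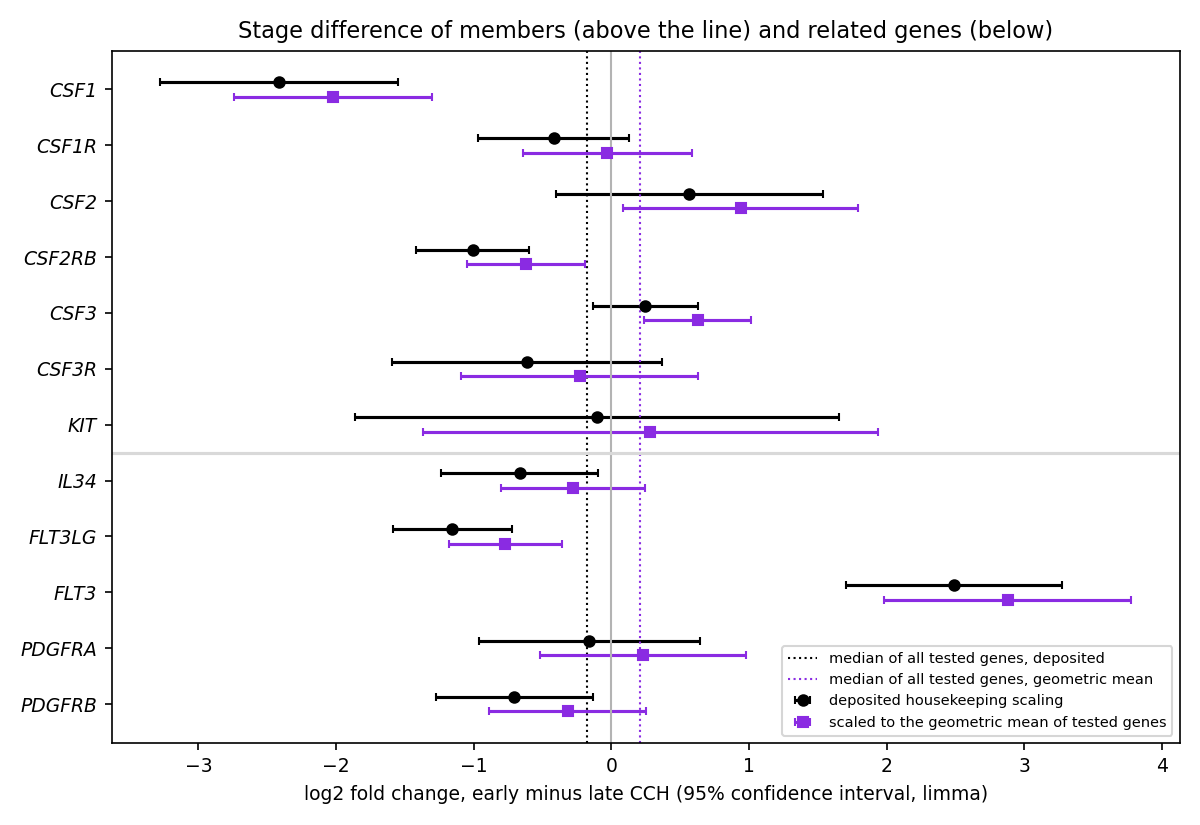
Log2 fold change, early minus late CCH, with its 95% confidence interval from limma for the 7 genes (above the grey line) and for 5 related ligands and receptors (below it). Black circles give the deposited housekeeping scaling and violet squares the geometric mean scaling; dotted lines mark the medians of all tested genes, -0.18 and 0.21. CSF1 and FLT3 lie far from both medians in opposite directions.

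The related class III receptor tyrosine kinases and their ligands gave 5 measured genes, of which 1 passed BH in each direction, with a median log2 fold change of -0.67. FLT3, the receptor that dendritic cell progenitors require, measured 2867, 962, 3117, 2349 and 2600 normalized counts in early tumours 1 to 5 and ranged from 271 to 708 in late CCH. Its log2 fold change was 2.49 (BY adjusted p = 0.0102). Its ligand FLT3LG went the other way, from 47.4 to 76.3 in early and from 126 to 174 in late CCH, with a log2 fold change of -1.16 (BY adjusted p = 0.0168). The call of FLT3LG by BY and 2-fold was lost under the geometric mean scaling (-0.77, still past BH) and quantile normalization (-0.60, BH adjusted p = 0.0514). Neither gene overlapped between the stages, so receptor and ligand of this pair moved in opposite directions. IL34, the alternative ligand of CSF1R, ranged from 54.0 to 95.5 in early and from 86.4 to 187 in late CCH, with a log2 fold change of -0.67 that did not pass (BH adjusted p = 0.0654). PDGFRB, the neighbour of CSF1R in the dog RefSeq annotation, had -0.71 (BH adjusted p = 0.0542), and PDGFRA, the neighbour of KIT, had -0.16 (BH adjusted p = 0.765), with the sign turned under the geometric mean scaling (0.23) and quantile normalization (0.36). The count of genes past BH on this list was 4 without late 3.

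Of the beta common and related cytokine receptor genes, 6 of the 8 present were tested and 2 were higher in late CCH at BH, near the 27.3% of all genes tested. These were IL2RG, the gamma chain shared by the receptors for IL2 and related cytokines, at -2.22 (BH adjusted p = 0.00066), and IL4R, the IL4 receptor alpha chain, at -0.59 (BH adjusted p = 0.0357). Under the geometric mean scaling IL4R had -0.20 and under quantile normalization 0.06, and it did not pass in either. In the geometric mean scaling 1 gene passed in each direction, IL2RG toward late CCH and IL5, a ligand that signals through CSF2RB, toward early CCH (0.67, BH adjusted p = 0.0438). IL5 exceeded background in 1 of 5 early and 3 of 5 late tumours. IL3RA, the alpha chain that pairs with CSF2RB for IL3, exceeded background in 1 of 5 early and 4 of 5 late tumours and had a log2 fold change of -0.12, or 0.25 under the geometric mean scaling. IL5RA did not exceed background in any tumour. CSF2RA, the alpha chain specific to CSF2, was not analysed here. The median of the 6 tested genes was -0.20, and 0.19 under the geometric mean scaling. The count past BH was 1 when early 1, 3, 4 or 5 or late 1, 4 or 5 was left out, since IL4R did not pass then.

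Among 26 genes for cytoplasmic signalling below these receptors, 5 passed BH toward early CCH and 9 toward late CCH, beside 8.41% and 27.3% of all genes tested, and the list median was -0.004. The geometric mean scaling turned this balance to 8 toward early and 4 toward late CCH, with a median of 0.39, and quantile normalization to 11 and 4. TYROBP, the adaptor DAP12 that transmits signals from several myeloid receptors, was higher in early CCH at 1.45, with 11077 to 14099 normalized counts in early and 3958 to 5104 in late CCH. PIK3CG, another leukocyte PI3 kinase subunit, was also called higher in early CCH at 1.20, and kept that call under the geometric mean scaling (1.59) and quantile normalization (1.58). JAK3, the kinase bound to the IL2RG chain, was higher in late CCH at -1.38, FYN, a Src family kinase of lymphocytes, at -1.31, and PIK3CD, a leukocyte PI3 kinase subunit, at -1.23. These 3 were the genes of the list called higher in late CCH by BY and 2-fold, and all 3 calls were lost under the geometric mean scaling (-0.99, -0.92 and -0.84) and under quantile normalization (-0.83 for both FYN and PIK3CD, and JAK3 just short of 2-fold), although all 3 passed BH in both. JAK2, the kinase bound to CSF2RB, had a log2 fold change of 0.02 (BH adjusted p = 0.943). The transcription factors that JAK2 activates were higher in late CCH, STAT5A at -0.63 (BH adjusted p = 0.00991) and STAT5B at -0.65 (BH adjusted p = 0.0109), but neither passed under the geometric mean scaling (-0.24 and -0.26) or quantile normalization (-0.16 and -0.04).

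Negative regulators and transcription factors also split by gene. Of 6 negative regulators, NF1, a brake on RAS, rose in early CCH relative to late CCH by 1.76 and DUSP6, a phosphatase of ERK, by 1.34, while LAIR1, an inhibitory collagen receptor of leukocytes, was higher in late CCH at -2.21. All 3 were called by BY and 2-fold. Of 8 myeloid transcription factors, 4 were higher in late CCH at BH, ETS1 at -2.47, EGR1 at -1.81, IRF8 at -1.43 and RUNX1 at -1.23, and MYC was higher in early CCH at 1.00. RUNX1, called by BY and 2-fold, lost that call under the geometric mean scaling (-0.84) and quantile normalization (-0.81), whereas MYC gained it (1.39 and 1.44). ETS1 is also abundant in lymphocytes. The list median was -1.06, the lowest of the 5 pathway lists. SPI1 was not analysed here.

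Markers of other cells moved with stage beside these genes. All 10 T cell markers were higher in late CCH at BH, with a median log2 fold change of -2.90, and their mean log2 value ranged from 5.05 to 8.88 in early and from 9.80 to 10.4 in late CCH. CD3E, a chain of the T cell receptor complex, had -3.18. The 10 passed in the same direction under the geometric mean scaling and quantile normalization. Their part in the higher CSF1 and CSF2RB of late CCH was not tested. Of 12 macrophage markers, 5 were higher in late CCH at BH, beside 27.3% of all genes tested, and under the geometric mean scaling 2 were higher and 1 was lower. Their summed level ranged from 3484 to 10962 normalized counts in early and from 8604 to 15838 in late CCH. CD68, a lysosomal protein of macrophages, had -1.29 (BY adjusted p = 0.0293), and its call by BY and 2-fold was lost under the geometric mean scaling (-0.90) and quantile normalization (-0.91). The scavenger receptor MSR1 had -1.67 (BH adjusted p = 0.0369), which did not pass under the geometric mean scaling (-1.28). CD163 had -0.31 and CD14 -0.35, and neither passed. Under the geometric mean scaling CD163 had 0.08 and CD14 0.04. MRC1, the mannose receptor, went the other way at 1.00 and did not pass (BH adjusted p = 0.0508). It was called higher in early CCH by BY and 2-fold under the geometric mean scaling (1.39) and quantile normalization (1.51). Of 16 Langerhans and dendritic cell markers, 4 were higher in each stage at BH, and under the geometric mean scaling 5 were higher in early and 2 in late CCH.

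The receptors were also set against markers of the cells known to carry them, in 4 comparisons with 1 adjustment over them. CSF1R relative to the macrophage markers had a log2 difference of 0.41 (exact two-sided permutation p = 0.254), and relative to the Langerhans and dendritic cell markers -0.47 (exact two-sided permutation p = 0.278). CSF3R relative to 9 neutrophil markers had -0.82 (exact two-sided permutation p = 0.151). KIT relative to 6 mast cell markers had -1.05 (exact two-sided permutation p = 0.270). The adjusted p was 0.278 in all 4, and none of the differences passed the threshold.

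The mast cell markers themselves were higher in early CCH for 4 of 6 genes at BH, with a median of 0.95. One of the 4, HDC, the enzyme that makes histamine, exceeded background in 2 of 10 tumours, and the mast cell protease CMA1 had -0.41 and did not pass (BH adjusted p = 0.611). CPA3, a protease of mast cell granules, had 1.38 (BH adjusted p = 0.0363) and MS4A2, the beta chain of the IgE receptor, 0.97 (BH adjusted p = 0.0350). FCER1A, the alpha chain of the IgE receptor, which Langerhans cells can carry too, had 2.44 (BH adjusted p = 0.00489). In early 3 and early 4, where KIT was 821 and 1216, the mean log2 value of the 6 mast cell markers was 6.12 and 6.64, beside 6.39 to 6.89 in the other early tumours. The markers did not go one way there. CPA3 was 47.7 and 74.1, beside 64.4 to 156 in the other early tumours, and FCER1A was 272 and 557, beside 98.4, 141 and 635. SOX10, the 1 melanocyte marker with a row, did not exceed background in any tumour. The neutrophil markers S100A8 and S100A9, calcium-binding proteins, varied within stages far more than between them. S100A8 ranged from 411 to 18630 in early and from 137 to 15455 in late CCH. S100A9 ranged from 622 to 8727 in early and from 89.6 to 6762 in late CCH. CXCR2, a chemokine receptor, had a log2 fold change of 0.68 (BH adjusted p = 0.154). Under the geometric mean scaling it was 1.06 and passed (BH adjusted p = 0.0328), and under quantile normalization 0.90 and did not (BH adjusted p = 0.113).

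**Figure D4:**
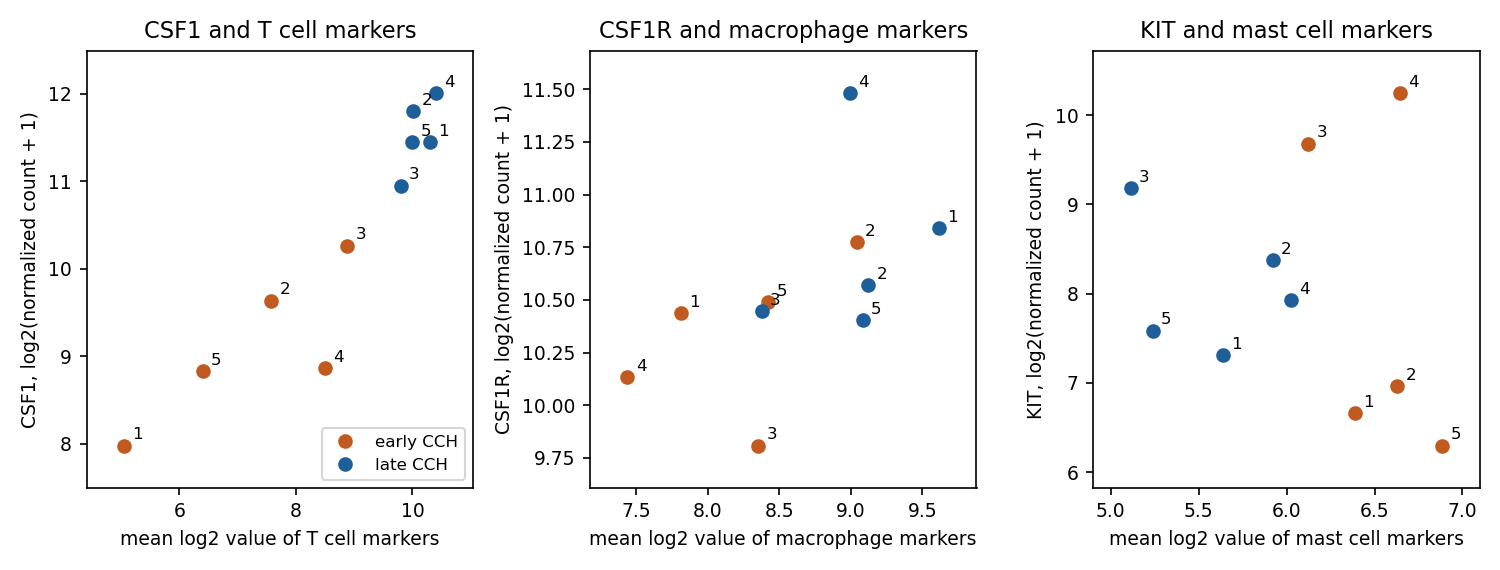
CSF1, CSF1R and KIT, as log2(normalized count + 1), against the mean log2 value of T cell, macrophage and mast cell markers in each tumour; digits are replicate numbers. CSF1 and the T cell markers both separate the stages, CSF1R overlaps between them, and KIT is high in early tumours 3 and 4, whose mast cell markers lie within the range of the other early tumours or just below it.

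Within stages, deviations from the stage mean were compared over the 10 tumours as a description, since the points share their housekeeping scaling, 1 cartridge per stage and the mix of cells in each tumour. CSF1 went most closely with FASLG, a death ligand of cytotoxic lymphocytes (Pearson r = 0.911, Spearman rho = 0.806), TAP1, a peptide transporter for MHC class I (0.892 and 0.806), and CCL3, an inflammatory chemokine (0.892 and 0.867). TAP1 was at rank 16 under the geometric mean scaling (r = 0.714), and FASLG and CCL3 at ranks 1 and 2. Within early and within late CCH alone, r was 0.926 and 0.846 for FASLG, 0.969 and 0.425 for TAP1, and 0.949 and 0.556 for CCL3. CSF1 and the T cell markers deviated together with r = 0.780 and rho = 0.758, whereas CSF1 and CSF1R did not, with r = 0.0065 and rho = -0.018.

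CSF1R went most closely with CYBB, a subunit of the phagocyte oxidase (Pearson r = 0.863, Spearman rho = 0.806), GUSB, a lysosomal enzyme (0.788 and 0.842), and LOC477699 (0.746 and 0.648), which was at rank 15 under the geometric mean scaling. For CSF2RB the leading genes were LOC100049001 (r = 0.918, rho = 0.842), LY96, a partner of TLR4 (0.864 and 0.842), and CPA3 (0.861 and 0.806). CSF2RB deviated with the mast cell list at r = 0.833 and with the fibroblast and stroma list at r = 0.845. CPA3 was higher in early CCH and CSF2RB in late CCH. CPA3 was at rank 21 for CSF2RB under the geometric mean scaling (r = 0.726).

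KIT went most closely with CLDN1, a tight junction protein (Pearson r = 0.942, Spearman rho = 0.891), CCL19, a chemokine that attracts T cells and mature dendritic cells (0.940 and 0.939), and IFI35, an interferon-induced gene (0.920 and 0.903). CLDN1 measured 586, 628, 3231, 4629 and 567 normalized counts in early tumours 1 to 5, and CCL19 measured 50.8, 71.2, 321, 563 and 43.6. Among the early tumours both were highest in early 3 and early 4, as KIT was, but CCL19 was higher still in late 2 to 5, at 606 to 814. IFI35 fell from rank 3 to rank 58 under the geometric mean scaling, whereas CLDN1 and CCL19 were at ranks 2 and 3. Within early CCH alone, r was 0.995 for CLDN1, 0.997 for CCL19 and 0.935 for IFI35. Within late CCH alone, r was 0.728, 0.551 and 0.816. KIT also deviated with the Langerhans and dendritic cell markers (r = 0.822) and the T cell markers (r = 0.719), and opposite to the stroma markers (r = -0.759) and to CSF1R (r = -0.565). With the mast cell markers the value was -0.330.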

How the data were processed

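The authors imported barcode counts into nSolver 4.0 and normalized them to positive controls and then to housekeeping genes. The deposited values are that normalized signal on a linear scale, called normalized counts here, for 800 genes and 14 control probes (6 positive, 8 negative) in 10 tumours. Gene values were divided by the worth of 1 barcode count to recover counts, used for depth and background only. Intervals cover the spread between tumours, and a low count adds counting error.

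Stage differences came from limma 3.58.1 (lmFit, eBayes with trend; R 4.3.3) on log2(normalized count + 1), early minus late, without covariates, after a filter at a mean of 20, with BH and BY adjustment over 761 genes. Because of the added 1, changes of weakly expressed genes come out smaller than they are. Single values and ratios were compared by exact two-sided permutation, written in Python 3.11.15, and Spearman rho came from SciPy 1.17.1. The scripts were tested on simulated data.

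The 7 members were taken by symbol, but this group of symbols, like the marker and pathway lists, was chosen with earlier results of these data known. Named genes were the members present, up to 4 genes past BH per pathway list by size plus IL34, FLT3, FLT3LG, CSF2RA, SPI1 and TYROBP, a set of marker genes, and the 3 genes with the most similar deviations per member above background in all samples. HDC, CMA1, MRC1, PDGFRA, PDGFRB, IL3, IL3RA, IL5, IL5RA, JAK2, PIK3CG, STAT5A, STAT5B, MYC, THY1 and SOX10 were named in addition, after their values were seen. Alternatives were another pseudocount (10), no filter and a mean of 50, geometric mean and quantile scaling, a background floor, no trend, array weights, DV200, the replicate number as a block, leaving out each tumour and, added after seeing the data, the RNA extraction batch as a random block (3 batches in early, 2 in late CCH, each holding 1 stage).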

Additional observations from a re-analysis of the deposited data

Results flagged for a closer look

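CSF3R in early tumour 2 stood apart from the other early tumours, at 114 normalized counts against 23.3 to 33.0, with a gap of 0.892 of the range of the group, above Dixon's 95% limit of 0.71 for 5 samples. The CSF3 to CSF3R ratio of the same tumour, at a log2 value of -1.58 against 0.08 to 0.42, had a gap of 0.826. Of 28 groups of values examined, these 2 (7.14%) exceeded the limit, where chance gives about 5%.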

How the results depend on the processing

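CSF1 kept its direction in all 21 alternatives and its place past BH in all but the fit with DV200 as a covariate (-2.23). Its call by BY and 2-fold held in 19 of the 21 and was lost with DV200 and with the replicate block (BY adjusted p = 0.106). CSF2RB kept its direction in all 21, from -1.13 to -0.39, and missed BH with DV200 (-1.13) and quantile normalization (-0.39); its call by BY and 2-fold held in 8. With DV200, whose values differ between the stages, limma called 0 genes by BY and 2-fold, with 45 past BH and 197 at an unadjusted p under 0.05. CSF3 passed BH under the geometric mean scaling (0.63). KIT, which passed in no alternative, turned sign under the geometric mean scaling (0.28), quantile normalization (0.49), array weights (0.25) and DV200 (1.92), and ranged from -0.67 to 0.31 when 1 tumour was left out. Leaving out 1 tumour gave 39 to 98 called genes, with under 57 in 5 cases, early 5 (47), late 1 (39), late 2 (48), late 4 (41) and late 5 (52). It gave 0.27 to 0.94 for CSF2, -1.01 to -0.44 for CSF3R, 1.32 to 1.93 for the CSF2 to CSF2RB ratio (adjusted exact p 0.0595 without early 4 or early 5, 0.0357 with all tumours) and 0.73 to 1.23 for the CSF3 to CSF3R ratio. Replicate numbers did not pair the tumours: same-numbered tumours deviated with r from -0.199 to 0.159, and 1 of 5 correlated best with its own number. With the replicate number as a block, 1 gene was called. The CSF1 to CSF1R ratio (-1.99) then had an exact p of 0.0625, the smallest that 5 pairs can give, and the CSF2 to CSF2RB ratio (1.58) one of 0.125. The extraction batch as a random block gave 118 called genes, with a consensus correlation of -0.138 and each batch within 1 stage. Closeness to the negative probes limits CSF2, CSF3 and CSF3R, which lay at or below a common background floor of 38.2 normalized counts in 8, 9 and 5 of 10 tumours. The ratio of KITLG to KIT was not run.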

Other observations

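Among the 7 genes themselves, deviations from the stage means over the 10 tumours had the highest Pearson r for CSF2RB and CSF3R (0.617, with Spearman rho = 0.479) and the highest Spearman rho for CSF1 and CSF3R and for CSF1R and CSF2RB (0.709 each). They were most opposed by both measures for CSF1R and KIT (r = -0.565, rho = -0.624). CSF3R deviated with the macrophage markers at r = 0.836 and with the neutrophil markers at r = 0.547. CSF1R deviated with the mast cell markers at r = 0.702, with the fibroblast and stroma markers at r = 0.696 and with the macrophage markers at r = 0.359. Against the Langerhans and dendritic cell markers its value was negative (r = -0.482, rho = -0.503). These points share their scaling and are given as a description.

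Markers of other lymphocytes were counted as well. All 6 B cell markers were higher in late CCH at BH (4 under the geometric mean scaling and 5 under quantile normalization), with a median log2 fold change of -2.15, and 3 of 5 NK cell markers were, with a median of -1.71. Of 6 stroma markers 1, THY1, was higher in late CCH at BH (-1.58), a count too small to set against the 27.3% of all genes tested.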
